A study of Homo sapiens with 12 samples.

Results

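ATF4, its companion factors and the genes of amino acid supply and stress output that are known to respond to it were followed through 4 groups of leukemia cells. The 35 genes were taken by name from the 36866 genes of the deposited table, as members of this program. They were chosen with earlier results of these data known. The groups were THP-1 cells with 0.1% DMSO, the solvent, THP-1 cells with honokiol, a biphenol from magnolia bark, and U-937 cells with the same pair of treatments, with 3 libraries in each group and 24 h of treatment. Both are established human lines of monocytic origin with a complex karyotype, so a difference between them can also carry a difference in gene copies. The labels list honokiol at 20 and 35 µM without saying which line received which dose, and they do not say whether the libraries of a group came from separate cultures, so the p-values may measure technical spread only.

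ATF4 is a bZIP transcription factor whose mRNA is translated when the initiation factor eIF2alpha is phosphorylated by the kinases of the integrated stress response, among them GCN2, which senses uncharged tRNA, and PERK in the endoplasmic reticulum. Its level is therefore set largely at translation, and its mRNA need not follow its activity. With a C/EBP-family partner ATF4 binds composite elements and induces the enzymes that make serine, glycine, asparagine, proline and cysteine, carriers that bring amino acids into the cell, and stress factors that restrain growth or, if the stress lasts, favor cell death.

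The 8-base composite element, searched as TGATGNAA on both strands, was found in the promoter window of 5 of the 28 members that had a RefSeq promoter, 250 bases before to 50 after the gene start (GRCh38.p14). It was present in 3.67% of the 27305 promoter windows searched. The stricter form TGATGCAA, which is contained in the first, was found in 0.923% of the windows and in 1 member, CHAC1. The stretches are shown, with the match in capitals, since ASNS, CHAC1 and ATF3 are measured in the following paragraphs beside 2 carriers with the same letters, SLC38A1 and SLC7A1.
ASNS, chr7:97872458-97872487, minus strand: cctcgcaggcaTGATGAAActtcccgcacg
CHAC1, chr15:40953251-40953280, plus strand: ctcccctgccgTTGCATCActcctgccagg
ATF3, chr1:212565205-212565234, plus strand: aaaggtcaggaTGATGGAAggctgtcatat
SLC38A1, chr12:46266502-46266531, minus strand: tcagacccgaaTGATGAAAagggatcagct
SLC7A1, chr13:29595663-29595692, minus strand: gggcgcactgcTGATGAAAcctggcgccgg
In CHAC1 the element reads on the opposite strand of the gene. Counted from the RefSeq gene start, the first base of the match was at -68 in ASNS, -209 in CHAC1, -191 in ATF3, -4 in SLC38A1 and 8 in SLC7A1. In the GENCODE 29 annotation it lay within an exon of some transcripts, in untranslated sequence, in ASNS, CHAC1 and SLC7A1, inside the gene but in no exon in SLC38A1, and outside the gene in ATF3. A match of letters shows no binding.

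The estimated counts summed to between 57406966 and 75065752 per library. DMSO replicate 1 stood apart in both lines by its share of mitochondrial transcripts, 13.7% of the counts in THP-1 and 12.6% in U-937, beside 5.61% to 7.55% elsewhere. All 11 monocytic and myeloid markers examined reached an FPKM of 0.5 in the THP-1 groups and 10 of 11 in the U-937 groups, where MPO was at or below 0.17. Of the markers of other cell types, CD3E and EPCAM stayed at or below 0.11 in every library and COL1A1 at or below 0.75, while PECAM1, which monocytes also express, was between 12.8 and 50.7. FPKM, a level scaled to transcript length and sequencing depth, is the scale of all levels given. A gene was tested in a line when at least 3 of its 6 libraries reached 0.5, which held for 32 members in THP-1 and 28 in U-937, and none of these members reached the limit through the libraries of 1 treatment only.

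With honokiol most members stood higher in both lines, but none passed the criterion of an adjusted p under 0.05 with a log2 fold change beyond 1 in the main test. The quasi-likelihood test of edgeR, adjusted by Benjamini and Hochberg over all genes of the line, called 0.0411% of 14600 genes in THP-1 and 0.0947% of 13726 in U-937. At an unadjusted p under 0.05, 11 of 32 members (34.4%) were higher in THP-1, where 6.84% of all genes were, and 1 member was lower, where 6.22% of all genes were. In U-937 14 of 28 members (50.0%) were higher, against 8.25% of all genes, and 0 were lower, against 8.44%. The median log2 fold change (log2 change) of the members was 0.44 in the THP-1 fit and 0.55 in the U-937 fit, beside -0.0011 and 0.02 over all genes tested, and 25 members were above 0 in THP-1 and 23 in U-937. Counted without a model, the 3 honokiol libraries lay above the 3 DMSO libraries for 11 members in THP-1 (13.0% of all genes) and for 17 in U-937 (16.7% of all genes). They lay below for 1 member in THP-1 (7.62% of all genes) and for 0 in U-937 (7.50%). DESeq2 on the same counts called 5 members in THP-1 (DDIT3, ASNS, PSAT1, ALDH1L2 and INHBE), where it called 1.71% of all genes, and 6 in U-937 (DDIT3, DDIT4, SESN2, ASNS, PSAT1 and VLDLR), where it called 1.62%. As the members were chosen with earlier results of these data known, these shares describe the list and are no independent test. In bulk libraries fewer cells with a transcript and less of it per cell cannot be told apart.

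**Figure D1:**
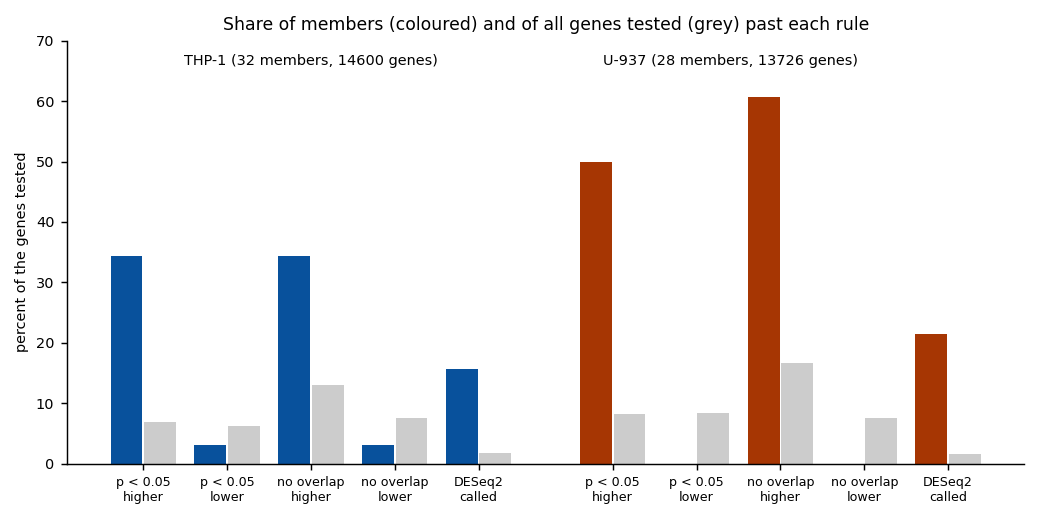
Percent of the members (blue for THP-1, brown for U-937) and of all genes tested (grey) that passed each rule: an unadjusted p under 0.05 from edgeR, no overlap of the 3 honokiol and 3 DMSO libraries, or a call by DESeq2. The members exceeded the grey bars in the higher direction (34.4% against 6.84% in THP-1 and 50.0% against 8.25% in U-937 at the unadjusted p) and not in the lower direction.

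**Figure D2:**
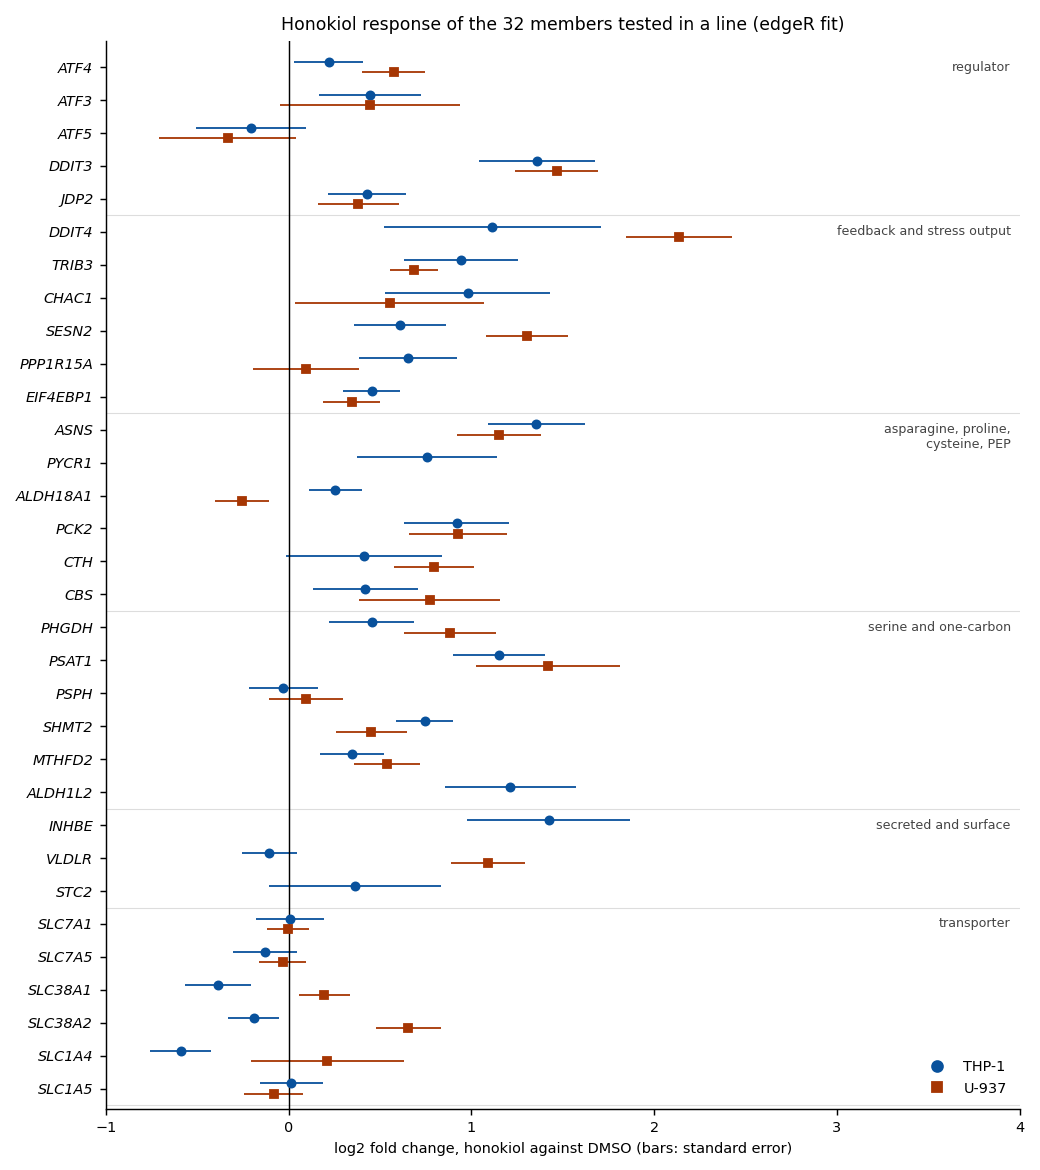
Log2 fold change of honokiol against DMSO with its standard error for each member tested, in THP-1 (circles) and U-937 (squares), grouped by role, with PEP for phosphoenolpyruvate. Stress outputs and enzymes lie mostly to the right of 0, while the 6 carriers tested lie between -0.59 and 0.01 in THP-1.

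Among the regulators, DDIT3 differed most, while ATF4 itself moved little in THP-1 and ATF5 overlapped between treatments in both lines. DDIT3 encodes CHOP, the factor that turns a lasting stress response toward cell death. In THP-1 cells DDIT3 had an FPKM of 9.88, 16.1 and 13.3 in the DMSO libraries and 24.4, 26.2 and 53.8 in the honokiol libraries. In U-937 cells DDIT3 measured 4.76, 5.49 and 4.66 with DMSO and 10.7, 18.4 and 14.97 with honokiol. The treatments did not overlap in either line, and the last THP-1 library stood far above the other two. DDIT3 had a log2 change of 1.36 (standard error, SE, 0.32, unadjusted p = 0.00263, adjusted p = 0.176) in THP-1 and of 1.47 (SE 0.23, unadjusted p = 0.000203, adjusted p = 0.0637) in U-937. Its ends overlap MARS and MBD6 on the opposite strand, and since the strand setting of the counting is not given, reads of these neighbors cannot be separated from it.

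ATF4 in THP-1 cells had values of 16.6, 13.9 and 12.02 with DMSO and 15.4, 16.6 and 19.8 with honokiol, which overlap. In U-937 cells ATF4 had values of 12.5, 9.61 and 14.5 and 20.4, 18.9 and 18.8, and every honokiol library was above every DMSO library. ATF4 had a log2 change of 0.22 (SE 0.19, unadjusted p = 0.276) in THP-1 and of 0.57 (SE 0.17, unadjusted p = 0.00994, adjusted p = 0.177) in U-937. The THP-1 value of ATF4 lay between 0.09 and 0.403 when 1 library was left out. ATF5, a related factor that is also controlled at translation, showed no such order. ATF5 in THP-1 cells was at 4.82, 7.14 and 3.21 with DMSO and 4.40, 3.67 and 5.62 with honokiol. In U-937 cells ATF5 was at 32.2, 23.03 and 11.6 and 14.04, 19.0 and 24.1, with a wide span within the DMSO group. ATF5 had log2 changes of -0.21 (unadjusted p = 0.513) and -0.33 (unadjusted p = 0.399), and it overlaps NUP62 and IL4I1 on the opposite strand.

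ATF3, a bZIP factor that ATF4 induces and that represses some of its targets, was near the limit of the filter. In THP-1 cells ATF3 was at 0.54, 0.42 and 0.58 with DMSO and 0.60, 0.76 and 0.83 with honokiol, a narrow separation. In U-937 cells ATF3 was at 0.88, 0.66 and 0.66 and 0.36, 1.65 and 1.21, where honokiol gave both the lowest value and the highest values. ATF3 had a log2 change of 0.45 in THP-1 (unadjusted p = 0.151) and 0.45 in U-937 (unadjusted p = 0.392). In U-937 that of ATF3 was 0.025 without honokiol replicate 2 and 0.857 without replicate 1. JDP2, a repressor of the same family, had no overlap between treatments in either line, with means of 1.75 ± 0.244 and 2.46 ± 0.528 (SD, n = 3) in THP-1 and of 2.91 ± 0.762 and 4.03 ± 0.401 in U-937, log2 changes of 0.43 and 0.38.

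**Figure D3:**
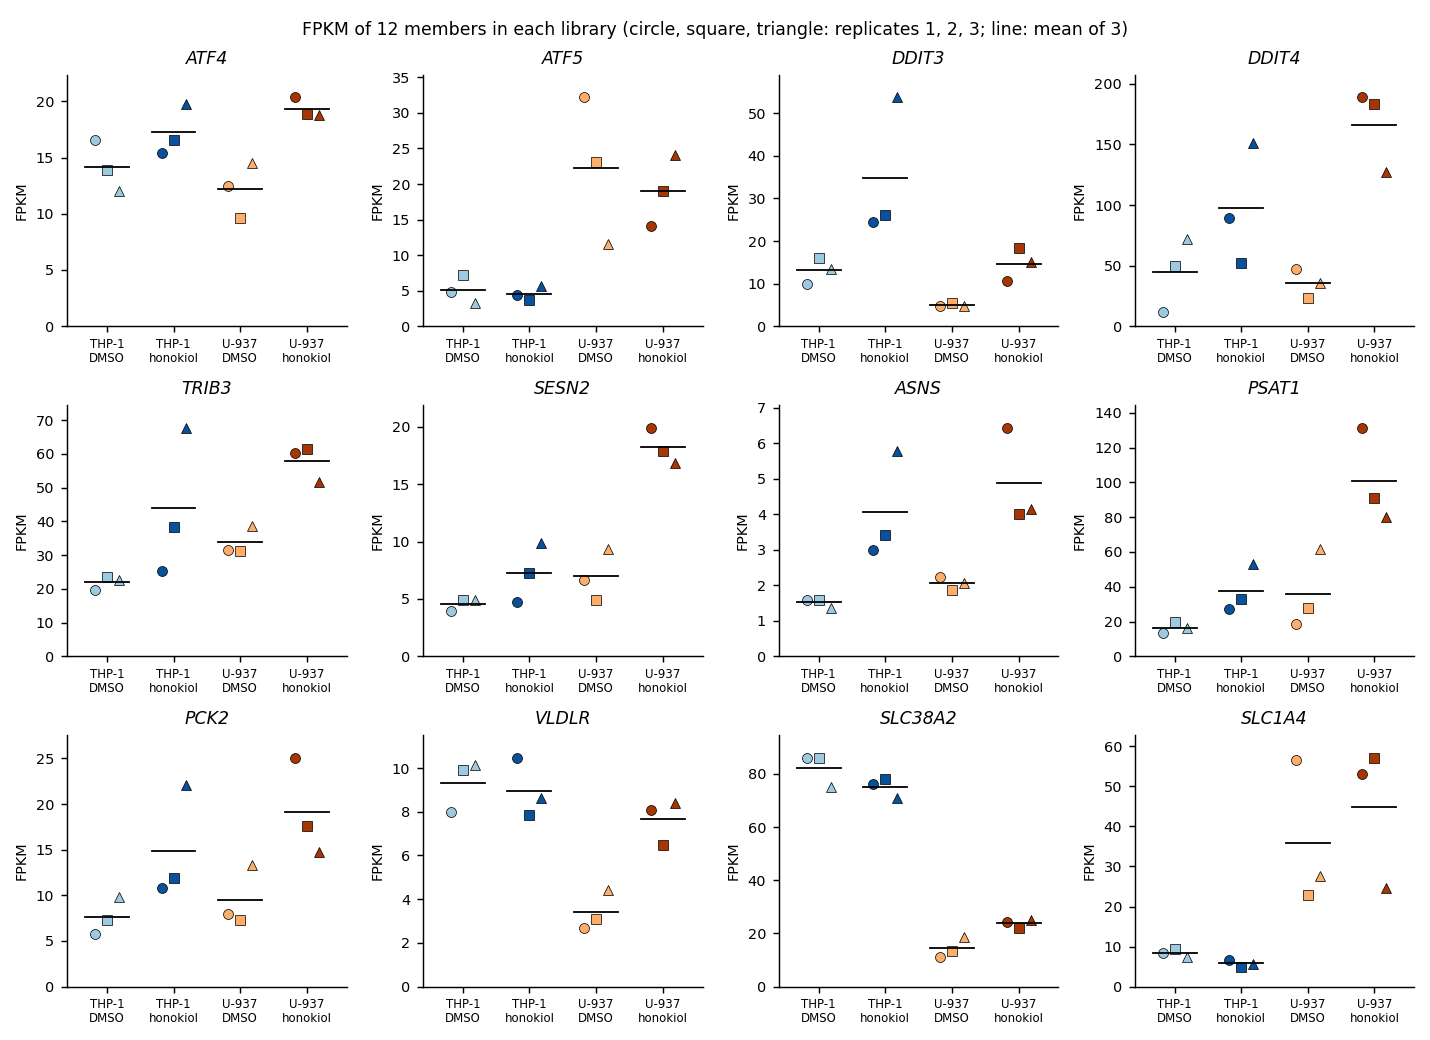
FPKM of 12 members in each of the 12 libraries, with replicates 1, 2 and 3 as circle, square and triangle, the mean of each group as a line and every axis starting at 0. DDIT3, TRIB3, ASNS, PSAT1 and PCK2 are separated between treatments in both lines, ATF4, DDIT4, SESN2, VLDLR and SLC38A2 in U-937 only, and SLC1A4 is lower with honokiol in THP-1.

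All 6 feedback and stress output genes had log2 fold changes above 0 in both lines, with medians of 0.80 for THP-1 and 0.62 for U-937, and 4 of them in THP-1 and 3 in U-937 were higher at an unadjusted p under 0.05. TRIB3, a pseudokinase that binds ATF4 and restrains it, measured 19.5, 23.6 and 22.7 with DMSO and 25.4, 38.5 and 67.8 with honokiol in THP-1. In U-937 TRIB3 measured 31.6, 31.2 and 38.7 and 60.3, 61.3 and 51.6, without overlap in either line. TRIB3 had a log2 change of 0.94 (SE 0.31, unadjusted p = 0.0161) in THP-1 and of 0.68 (SE 0.13, unadjusted p = 0.000828, adjusted p = 0.0833) in U-937, where the honokiol libraries lay closer together.

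DDIT4 and SESN2 both hold back mTORC1, the kinase complex that drives growth when amino acids are plentiful. In U-937 cells DDIT4 was at 46.9, 23.3 and 35.5 with DMSO and at 189, 183 and 127 with honokiol, so that the lowest honokiol library stood far above the highest DMSO library. DDIT4 had a log2 change of 2.14 there (SE 0.29, unadjusted p = 7.52e-05, adjusted p = 0.0598), the largest of the members tested in either line. In THP-1 its 3 DMSO libraries were at 11.4, 49.5 and 72.2 and its honokiol libraries at 89.2, 52.4 and 151, and the groups overlapped. The lowest of these, DMSO replicate 1, is the library with 13.7% mitochondrial counts, and the part this plays was not tested. SESN2 was at 6.65, 4.92 and 9.31 with DMSO and 19.9, 17.9 and 16.8 with honokiol in U-937, without overlap, a log2 change of 1.302 (SE 0.22, adjusted p = 0.0711). In THP-1 SESN2 went from 4.58 ± 0.549 to 7.26 ± 2.56 (SD, n = 3), a log2 change of 0.61, and its groups overlapped.

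CHAC1, which degrades glutathione, was at 1.51, 1.91 and 0.98 with DMSO and 1.48, 2.7 and 4.91 with honokiol in THP-1, which overlap. In U-937 cells CHAC1 was at 0.69, 0.16 and 0.67 with DMSO and 0.86, 0.82 and 0.73 with honokiol, so that the groups did not overlap only by a margin smaller than the spread of the DMSO libraries. CHAC1 had log2 changes of 0.98 in THP-1 (SE 0.45, unadjusted p = 0.062) and 0.55 in U-937 (SE 0.52, unadjusted p = 0.317). The U-937 value of CHAC1 was 0.13 without DMSO replicate 2, the lowest library, and 0.88 without DMSO replicate 1. PPP1R15A, which brings a phosphatase to eIF2alpha and so ends the response, had a log2 change of 0.65 in THP-1 (unadjusted p = 0.0413) and of 0.09 in U-937 (unadjusted p = 0.754). EIF4EBP1, which binds the cap-binding factor eIF4E when mTORC1 is inactive, was among the most abundant members, with means of 59.1 ± 11.8 and 83.6 ± 9.78 (SD, n = 3) in THP-1 and of 173 ± 17.7 and 233 ± 36.7 in U-937. The treatments did not overlap for EIF4EBP1 in either line, with log2 changes of 0.45 and 0.34.

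Of the serine and one-carbon enzymes, PSAT1 stood out in both lines and PSPH was near 0 in both. Serine is made from a glycolytic intermediate by PHGDH, PSAT1 and PSPH in turn, and SHMT2, MTHFD2 and ALDH1L2 carry its one-carbon unit through the mitochondrial folate pathway. In THP-1 cells PSAT1 was at 13.4, 19.9 and 16.04 with DMSO and 27.1, 32.95 and 53.4 with honokiol. In U-937 cells PSAT1 was at 18.9, 27.6 and 61.7 and 132, 91.3 and 80.0, with a wide spread in the DMSO group that stayed below the honokiol group. PSAT1 had a log2 change of 1.15 (SE 0.25, unadjusted p = 0.00192, adjusted p = 0.168) in THP-1 and of 1.42 (SE 0.39, unadjusted p = 0.00705, adjusted p = 0.159) in U-937. PHGDH, the first enzyme of the pathway, was at 10.7, 13.5 and 20.5 with DMSO and 36.6, 28.6 and 21.9 with honokiol in U-937, a narrow gap. PHGDH had a log2 change of 0.88 in U-937 (SE 0.25, unadjusted p = 0.00815) and of 0.45 in THP-1 (unadjusted p = 0.0872). PSPH, the last enzyme, had log2 changes of -0.03 and 0.09. Its unprocessed pseudogene PSPHP1 was listed at up to 4.38 but with at most 90 counts, beside 901 or more for PSPH. Reads could have been divided between them.

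In THP-1 cells SHMT2 was at 20.4, 24.5 and 26.5 with DMSO and 37.2, 36.7 and 50.1 with honokiol, a log2 change of 0.74 (SE 0.16, unadjusted p = 0.0014). In U-937 SHMT2 had a log2 change of 0.45 (unadjusted p = 0.0492) and its groups overlapped. MTHFD2 was at 18.7, 21.9 and 29.6 with DMSO and 42.1, 34.7 and 31.2 with honokiol in U-937, where the groups were set apart by a small gap, and had log2 changes of 0.54 there (unadjusted p = 0.0178) and 0.35 in THP-1 (unadjusted p = 0.0862). ALDH1L2 was measurable in THP-1 alone, at 2.03, 2.36 and 1.02 with DMSO and 3.25, 3.67 and 6.20 with honokiol, which do not overlap. ALDH1L2 had a log2 change of 1.21 (SE 0.36, unadjusted p = 0.00981, adjusted p = 0.266). It lies across C12orf45, a gene of the opposite strand listed at no more than 0.90 but with up to 1952 counts. ALDH1L2 had 697 to 1660 counts in the THP-1 libraries with DMSO, and reads of the pair cannot be separated without strand.

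ASNS, asparagine synthetase and the classical target of the pathway, was separated between treatments in both lines. In THP-1 cells ASNS was at 1.59, 1.60 and 1.36 with DMSO and 2.99, 3.42 and 5.79 with honokiol. In U-937 cells ASNS was at 2.22, 1.88 and 2.06 and 6.44, 4.01 and 4.15. In both lines the lowest honokiol library was well above the highest DMSO library. ASNS shares 20855 bases with AC079781.5, a noncoding transcript of the same strand listed at 0.22 to 1.5 with up to 610 counts. Beside it ASNS had 483 to 584 counts in the THP-1 libraries with DMSO, and reads could have been divided between them. ASNS had a log2 change of 1.36 (SE 0.27, unadjusted p = 0.000966, adjusted p = 0.144) in THP-1 and of 1.15 (SE 0.23, unadjusted p = 0.00104, adjusted p = 0.0897) in U-937.

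PCK2, the mitochondrial enzyme that makes phosphoenolpyruvate, gave nearly the same fold change in both lines. In THP-1 cells PCK2 was at 5.81, 7.27 and 9.76 with DMSO and 10.8, 11.9 and 22.1 with honokiol. In U-937 cells PCK2 was at 7.96, 7.31 and 13.3 and 25.1, 17.6 and 14.8, and neither line had an overlap. PCK2 had a log2 change of 0.92 (SE 0.29, unadjusted p = 0.0131) in THP-1 and of 0.93 (SE 0.27, unadjusted p = 0.00825) in U-937. CTH, which releases cysteine from cystathionine, was at 3.45, 2.97 and 4.42 with DMSO and 6.94, 7.83 and 5.28 with honokiol in U-937, without overlap. CTH had a log2 change of 0.796 (SE 0.22, unadjusted p = 0.00657) in U-937 and of 0.41 in THP-1 (unadjusted p = 0.364), where its mean was 0.4 ± 0.155 with DMSO (SD, n = 3). CBS, which makes the cystathionine, had log2 changes of 0.42 and 0.77 (unadjusted p = 0.181 and 0.0818), but its near-identical copy CBSL was listed at up to 1.84 and the split between them is uncertain. Of the proline enzymes, ALDH18A1, which acts early, had opposite signs, 0.26 in THP-1 and -0.26 in U-937 on the log2 scale (unadjusted p = 0.121 and 0.125). PYCR1, which acts last, had a log2 change of 0.76 in THP-1 (unadjusted p = 0.0834).

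The amino acid carriers stood near or below 0 in THP-1, with a median log2 fold change of -0.16 over the 6 tested in THP-1 and of 0.10 in U-937. SLC7A1, the carrier of arginine and lysine, had log2 changes of 0.01 and -0.004. SLC7A5, which takes up leucine and other large neutral amino acids, had -0.13 and -0.03, and SLC1A5, which takes up glutamine, had 0.01 and -0.08, in each case with an unadjusted p above 0.05. The neutral carriers SLC38A1 and SLC38A2 lay below 0 in THP-1 and above it in U-937. SLC38A2 was at 11.2, 13.2 and 18.6 with DMSO and 24.4, 21.9 and 25.1 with honokiol in U-937, without overlap, and had a log2 change of 0.65 (SE 0.18, unadjusted p = 0.00631, adjusted p = 0.154). In THP-1 the DMSO libraries of SLC38A2 averaged 82.2 ± 6.38 and the honokiol libraries 75.02 ± 3.699 (SD, n = 3), a log2 change of -0.19. SLC38A1 had log2 changes of -0.39 (unadjusted p = 0.0648) and 0.196 (unadjusted p = 0.2). SLC1A4, a carrier of serine, alanine and cysteine, was the only member whose honokiol libraries lay below the DMSO libraries, at 8.36, 9.32 and 7.44 with DMSO and 6.72, 4.93 and 5.70 with honokiol in THP-1. SLC1A4 had a log2 change of -0.59 there (SE 0.17, adjusted p = 0.244, unadjusted p = 0.0078) and of 0.21 in U-937 (SE 0.42).

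Among the secreted and surface proteins, INHBE was separated between treatments in THP-1, VLDLR and the low counts of STC2 in U-937. INHBE, the subunit of activin E, was at 0.52, 1.06 and 0.88 with DMSO and 1.20, 1.80 and 3.80 with honokiol in THP-1, without overlap. INHBE had a log2 change of 1.42 (SE 0.45, unadjusted p = 0.0129, adjusted p = 0.284). In U-937 cells VLDLR, a lipoprotein receptor, was at 2.66, 3.11 and 4.44 with DMSO and 8.09, 6.47 and 8.41 with honokiol, without overlap. VLDLR had a log2 change of 1.09 in U-937 (SE 0.20, unadjusted p = 0.000627, adjusted p = 0.0776) and of -0.11 in THP-1 (SE 0.15), where DMSO gave 7.97, 9.90 and 10.1 and honokiol 10.5, 7.83 and 8.62. STC2, a secreted glycoprotein, had a log2 change of 0.36 in THP-1 (SE 0.47), with DMSO replicate 1 at 1.05 and the other DMSO libraries at 4.15 and 3.42. In U-937, where it was under the limit, the counts of STC2 were 12, 26 and 34 in the DMSO libraries and 52, 60 and 61 in the honokiol libraries, without overlap (unadjusted p = 0.0257, adjusted p = 0.459 with no filter).

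The 3 members under the limit in both lines are given by their counts. NUPR1, a small stress-induced nuclear protein, had 15, 34 and 61 counts in the THP-1 libraries with DMSO and 47, 36 and 61 in those with honokiol, and 97, 48 and 31 and 79, 316 and 94 in U-937, where a single honokiol library stood out. SLC6A9, the glycine carrier, had 0, 73 and 38 counts in the THP-1 libraries with DMSO and 132, 162 and 284 in those with honokiol, where the treatments did not overlap, and 0, 7 and 19 and 12, 8 and 44 in U-937. On the opposite strand it overlaps CCDC24 and AL139220.2, with up to 363 and 199 counts, whose reads cannot be separated from it. CEBPB-AS1, a noncoding transcript of the strand opposite CEBPB, had 29, 9 and 30 counts in the THP-1 libraries with DMSO and 26, 31 and 19 in those with honokiol, and 26, 21 and 35 and 36, 23 and 30 in U-937. CEBPB itself was between 37.5 and 173, and the reads of the pair cannot be told apart without strand. With no filter on low values NUPR1, SLC6A9 and CEBPB-AS1 had unadjusted p-values of 0.782, 0.0657 and 0.874 in THP-1 and of 0.0665, 0.279 and 0.83 in U-937. In U-937 ALDH1L2, INHBE, PYCR1 and STC2 were also under the limit, with at most 44, 140, 37 and 61 counts in any library.

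The size of the response differed between the honokiol libraries of THP-1. Honokiol replicate 3 was the highest of its group for 28 of the 32 members tested. The median ratio of the members to the mean of the DMSO libraries was 1.12, 1.28 and 1.75 in honokiol replicates 1, 2 and 3, while over all genes tested it was between 1.02 and 1.04. In U-937 the corresponding ratios were 1.69, 1.57 and 1.39, with 1.04 to 1.09 over all genes, and in the DMSO libraries of both lines the members were between 0.89 and 1.16. Without honokiol replicate 3, 7 THP-1 members instead of 11 were higher at an unadjusted p under 0.05, and the log2 change was 0.84 instead of 1.42 for INHBE, 0.499 instead of 0.94 for TRIB3, 0.54 instead of 0.92 for PCK2 and 0.12 instead of 0.22 for ATF4. Without the DMSO library of high mitochondrial share, the higher members at the unadjusted p numbered 10 in THP-1 and 12 in U-937.

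**Figure D4:**
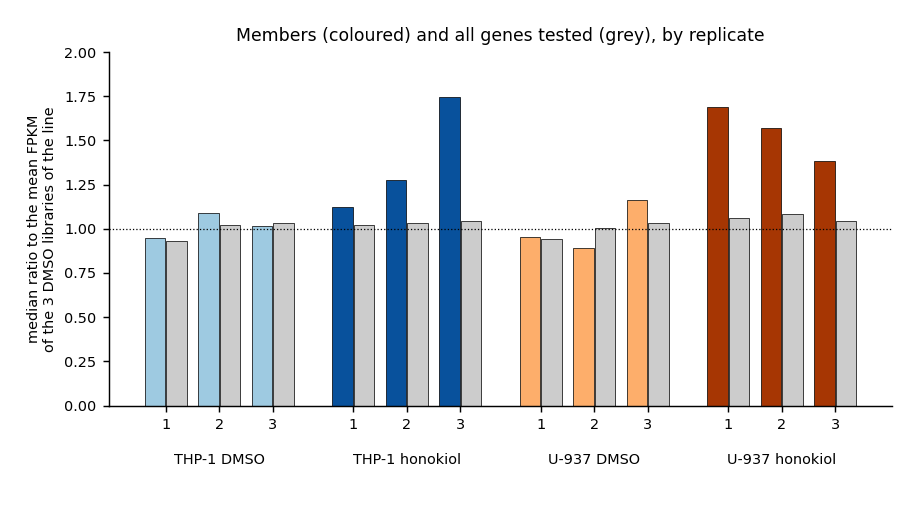
Median, over the members tested in the line (coloured) and over all genes tested (grey), of the ratio of each library to the mean FPKM of the line's 3 DMSO libraries, with the axis from 0. The THP-1 honokiol libraries are at 1.12, 1.28 and 1.75 and the U-937 honokiol libraries at 1.69, 1.57 and 1.39, while the grey bars remain between 0.93 and 1.09.

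Whether the lines responded differently was tested as the U-937 log2 fold change minus the THP-1 log2 fold change in one edgeR fit of the 12 libraries. The comparisons share their DMSO libraries with this test and with the one of untreated cells. The labels do not say which line received which honokiol dose. In its cell cycle assay the study gave U-937 a higher dose than THP-1. If the sequenced cells were treated likewise, dose and line changed together. An effect of dose therefore cannot be told apart from a difference of the lines, and its part was not tested. No member had an adjusted p under 0.05, as 0.111% of the 16283 genes did, and 4 of 32 had an unadjusted p under 0.05, a share of 12.5% beside 9.37% of all genes. These were VLDLR with a difference of 1.18 (SE 0.26, unadjusted p = 0.000582, adjusted p = 0.142), SLC38A2 with 0.83 (SE 0.23, adjusted p = 0.298), SLC38A1 with 0.57 (SE 0.23, adjusted p = 0.47) and ALDH18A1 with -0.52 (SE 0.21, adjusted p = 0.467). DESeq2 called VLDLR alone among the members, where it called 1.52% of all genes. The difference was 0.098 for DDIT3 (SE 0.42), -0.22 for ASNS (SE 0.37), -0.003 for PCK2 (SE 0.43) and 0.35 for ATF4 (SE 0.26). DDIT4, which was separated between treatments in U-937 alone, had a difference of 1.01 with an SE of 0.74 (unadjusted p = 0.198), which does not set the lines apart.

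Without honokiol, single members stood at different levels in the lines. Of the 32 members tested, 9 were higher in DMSO-treated U-937 cells and 9 lower at an adjusted p under 0.05 and a log2 fold change beyond 1, where 14.4% of all genes were called higher and 19.7% lower. Higher in U-937 were CTH, PPP1R15A, ATF5, SLC1A4, SLC7A5, EIF4EBP1, SLC1A5, ALDH18A1 and PSAT1. CTH was at 0.4 ± 0.155 in THP-1 and in U-937 it was at 3.61 ± 0.739 (SD, n = 3), a log2 difference of 3.08 (SE 0.36, adjusted p = 1.85e-05). PPP1R15A was at 7.05 ± 0.382 and 46.3 ± 16.9, a log2 difference of 2.68 (SE 0.33, adjusted p = 2.9e-05). For ATF5 and SLC1A4, the log2 differences of 2.11 and 2.07 rest on U-937 libraries that spread widely, between 11.6 and 32.2 for ATF5 and between 23.0 and 56.6 for SLC1A4. PSAT1 was called with overlapping libraries, at a log2 difference of 1.07 (adjusted p = 0.0286). Pseudogenes of SLC7A5 were listed at up to 6.14 but with at most 254 counts, beside 8467 or more for SLC7A5 in any library. Reads could still have been divided between them.

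Lower in U-937 were PYCR1, ALDH1L2, STC2, INHBE, SLC38A2, SLC38A1, CHAC1, VLDLR and DDIT3. PYCR1, ALDH1L2, STC2 and INHBE reached the FPKM limit in THP-1 only and so had to differ. Among the 28 members past the limit in both lines, 9 were called higher (32.1%) and 5 lower (17.9%), where 12.2% and 11.5% of 12343 such genes were. PYCR1 was at 4.25, 5.84 and 7.60 in the THP-1 libraries and at 0.15, 0.07 and 0.00 in the U-937 libraries, and ALDH1L2 at 2.03, 2.36 and 1.02 and at 0.01, 0.03 and 0.03. SLC38A2 was the most abundant member in THP-1, at 82.2 ± 6.38, and was at 14.3 ± 3.83 in U-937 (SD, n = 3), a log2 difference of -2.58 (SE 0.17, adjusted p = 2.56e-07). SLC38A1 had a log2 difference of -2.02 (adjusted p = 1.55e-06), VLDLR of -1.504 (adjusted p = 2.83e-05) and DDIT3 of -1.43 (adjusted p = 0.00166). ATF4 was at 14.1 ± 2.28 in THP-1 and in U-937 it was at 12.2 ± 2.45, a log2 difference of -0.27 (SE 0.18, adjusted p = 0.236), and the other members not called had differences between -0.33 and 0.77 with adjusted p from 0.00387 to 0.963.

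**Figure D5:**
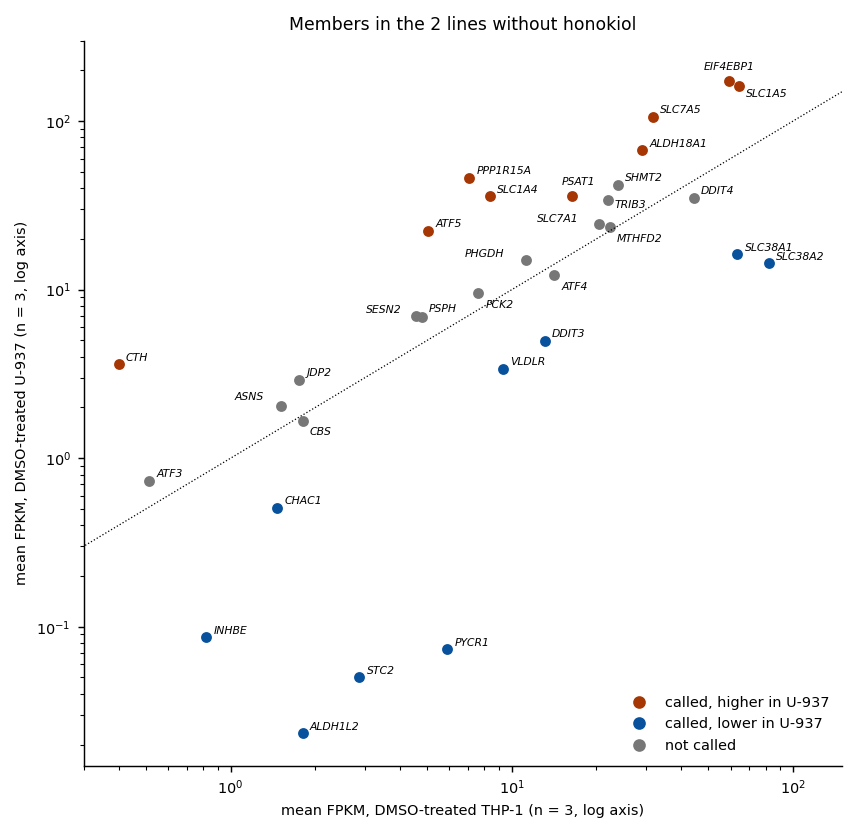
Mean FPKM of the 32 members tested in DMSO-treated THP-1 (x) and DMSO-treated U-937 (y) cells, 3 libraries each, on log axes, with equality as a dotted line. CTH, PPP1R15A and ATF5 lie above the line and PYCR1, ALDH1L2, STC2 and INHBE far below it, at less than 0.1 in U-937.

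The other genes of the pathway are given by their counts at an unadjusted p under 0.05, to be read beside 6.84% of all genes higher and 6.22% lower in THP-1 and 8.25% and 8.44% in U-937, shares that a single gene of a list comes near. None of these lists had a gene called by edgeR in either line, while DESeq2 called CEBPB, SLC7A11 and GDF15 in both lines, KLHL24, DDIT4L and CD14 in THP-1, and SLC7A6 and BCL2L11 in U-937, beside 1.71% and 1.62% of all genes. In U-937 GDF15 passed the filter through its honokiol libraries only, which favors its call there. Of 13 kinases, phosphatases and regulators of eIF2alpha, 1 was higher in THP-1 (IMPACT) and 1 in U-937 (EIF2AK3, which encodes PERK), and 0 were lower. Of 11 bZIP partners and related factors, 2 were higher in THP-1, and in U-937 2 of 10 were higher and 1 lower. The partner CEBPB was at 48.1 ± 12.03 with DMSO and 152 ± 35.5 with honokiol (SD, n = 3) in THP-1, a log2 change of 1.62 (adjusted p = 0.0607). In U-937 CEBPB was at 50.4 ± 7.97 and 115 ± 2.23, a log2 change of 1.098 (adjusted p = 0.0624).

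Of 14 other outputs of ATF4 and CHOP tested in each line, 5 were higher in THP-1 and 5 in U-937, and 1 and 2 were lower. GDF15, a secreted stress cytokine, was at 0.447 ± 0.0737 in THP-1 cells with DMSO and at 4.39 ± 2.62 with honokiol (SD, n = 3), a log2 change of 3.22 (adjusted p = 0.0607). In U-937 GDF15 was at 0.147 ± 0.0513 and 1.33 ± 0.604, below the limit of 0.5 in every DMSO library, so that it was tested through its honokiol libraries. Its place among the higher genes of U-937 and its DESeq2 call there are therefore no support. KLHL24 had a log2 change of 1.305 in THP-1 and BCL2L11, which encodes the apoptosis inducer BIM, of 1.03 in U-937. Of the other amino acid carriers, 2 of 14 were higher and 1 lower in THP-1, and 3 of 13 higher and 1 lower in U-937. SLC7A11, which exchanges cystine for glutamate, was at 1.003 ± 0.248 and 2.94 ± 1.01 in THP-1 and at 2.65 ± 0.545 and 7.503 ± 1.39 in U-937, log2 changes of 1.48 (adjusted p = 0.168) and 1.42 (adjusted p = 0.0607). SLC7A6 was lower in U-937 with a log2 change of -1.26 (adjusted p = 0.2). Of 17 other enzymes of amino acid and folate metabolism, 2 were higher and 0 lower in THP-1 and 3 higher and 1 lower in U-937. Of 17 genes of mTORC1 and its regulators, 2 were higher and 0 lower in THP-1, where DDIT4L had a log2 change of 2.32 (unadjusted p = 0.0067), and 2 were higher and 1 lower in U-937. Of the 11 myeloid markers tested in THP-1, 1 was higher, CD14 with a log2 change of 1.16, and 1 lower, CSF1R with -0.62. In U-937 1 of 10 was higher, ITGAM with 0.695, and 2 were lower, LYZ with -0.87 and CEBPA with -0.27. The summed level of the list was 1676 to 2679 with DMSO and 2461 to 2701 with honokiol in THP-1 and 954 to 1382 and 752 to 984 in U-937.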

How the data were processed

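The study sequenced polyadenylated RNA in 12 libraries. For every gene the authors deposited 2 values per library, an FPKM, which they had scaled by transcript length and depth, and an estimated count, a whole number that was not normalized. The deposited counts are expected counts from coverage, since the value 4 occurs 17264 times, more often than 1, 2, 3 and 5 (10103, 9533, 6764 and 4016 times), so that their sums need not be numbers of fragments, and how many counts a fragment is worth was not tested. The submitters' processing notes name HISAT2 2.0, StringTie 1.3.0, Bowtie 0.12.2 and the mouse build mm8, with no role or order. The gene IDs are human, 35762 of 36866 were found in GENCODE 29, and 22476 had the identical GRCh38 position there. The strand setting of the counting is not given in the sources used here. The series text describes a microarray and the labels and the methods name different instruments, while the table holds sequencing values. No per-sample column was left unmapped, and samples were grouped by the labels.

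Within a line, the treatments were compared on the counts by the quasi-likelihood test of edgeR 4.0.16 (R 4.3.3), with TMM normalization, Benjamini-Hochberg adjustment over all genes tested and no term for the replicate. A gene was tested when 3 or more libraries of the fit reached an FPKM of 0.5. The call rule, an adjusted p under 0.05 with a log2 fold change beyond 1 in either direction, has the thresholds of the study's methods, which do not name the test. The study reported far more differentially expressed genes in each line than edgeR called here, and the reason was not tested. Untreated lines and the difference of the responses were tested in one fit of the 12 libraries. The alternatives were DESeq2 1.42.0, limma-trend (limma 3.58.1) on log2(FPKM + 0.5), other pseudocounts, scalings and filters, a replicate block, counts divided by 4 and each library left out. The scripts were tested on simulated counts.

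The members and lists were chosen with earlier results of these data known. Library values are given for ATF4, ATF3, ATF5 and DDIT3, for members called in a line or for the difference, and for members past the FPKM limit whose treatments do not overlap with an absolute log2 fold change over 0.5. Other members are given by 1 value per line, and those under the limit by counts. Of the other lists, genes with an unadjusted p under 0.05 and a fold change beyond the same limit are named, as are genes named for an overlap, a copy or a count of 1, which were chosen after their values were seen. Promoter sequences are those of RefSeq. A further marker of other cell types is not reported here.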

Additional observations from a re-analysis of the deposited data

How the results depend on the processing

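In the edgeR fit 0 members were called for honokiol in either line and for the difference between lines. DESeq2 called 5 in THP-1, 6 in U-937 and 1 for the difference. In U-937 limma-trend called 1 member (DDIT4) with each of the 3 pseudocounts, the edgeR test without a TMM factor called 1 (DDIT4), and one fit of 12 libraries called 3 (DDIT3, SESN2 and VLDLR). The number of members higher at an unadjusted p under 0.05 was 7 to 14 in THP-1 when 1 library was left out (7 when it was the third honokiol library), and in U-937 it was 12 to 15. The lower members numbered 1 to 2 in THP-1, with 2 without DMSO replicate 3 or honokiol replicate 1, and in U-937 0 to 1, with 1 without DMSO replicate 1 or 3. In the difference 2 to 4 members had an unadjusted p under 0.05, 2 without THP-1 DMSO replicate 2. Apart from those of DESeq2, the shares of all genes under these alternatives are not given here. These counts therefore cannot be read as changes of the members alone. Members lying above without overlap numbered 11 to 19 in THP-1 when a library was left out, a choice made after the data were seen (19 without honokiol replicate 1), while U-937 had 17 to 20. Members lying below numbered 1 to 3 in THP-1 (2 without honokiol replicate 1, 3 without DMSO replicate 3) and 0 to 1 in U-937 (1 without DMSO replicate 1). Of all genes, 9.29% to 15.5% then lay below in THP-1 and 9.65% to 14.1% in U-937. Fewer libraries can only add to these numbers. On TMM-scaled counts per library total, chosen after the data were seen, 15 members of U-937 lay above without overlap instead of 17. The share of all genes on that scale was not counted. The cause of the other changes was not tested.

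Over the 32 results given for single members, 564 alternative values were computed, of which 537 kept their direction and their side of the adjusted threshold, 25 moved past it and 2 reversed. Both reversals were of ATF5, whose log2 change lay between -0.46 and 0.09 in THP-1, at 0.0871 without DMSO replicate 2, and in U-937 between -0.67 and 0.07, at 0.0685 without DMSO replicate 1. The log2 change of DDIT3 spanned 0.91 to 1.56 (THP-1) and 1.29 to 1.65 (U-937), that of ASNS 0.97 to 1.53 and 0.896 to 1.28, that of INHBE 0.78 to 1.73 in THP-1, where it was the largest of the members in the main test but not in every alternative, and that of ATF3 0.03 to 0.86 in U-937. The untreated lines differed for 18 members in the main test and for 14 to 18 in the alternatives, 14 when a gene had to pass the limit in both lines.

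Libraries of the same replicate number deviated from their group means with correlations of -0.107, -0.155 and 0.094 in THP-1 and of -0.121, -0.104 and -0.108 in U-937. For different numbers they were -0.071 to 0.198 in THP-1 and -0.083 to 0.188 in U-937. No pairing by number was seen, but 3 libraries a group cannot exclude one. The check did not compare the lines, in both of which DMSO replicate 1 had a high mitochondrial share. With the replicate number as a block 13 members were higher at an unadjusted p under 0.05 in THP-1 and 13 in U-937, 0 were called in either line, and 17 were called between untreated lines. The shares of all genes in the fits with this block are not given here. With 3 libraries a group and estimated counts, members below an FPKM of about 1 were measured with little precision.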
